A study of Mus musculus with 16 samples.

Results

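The Cyp3a genes encode the mouse members of the cytochrome P450 subfamily that oxidizes the widest range of drugs and steroids in liver. Of 20659 genes named on the array, 8 were Cyp3a genes, found through the RefSeq transcript that each probe was designed to: Cyp3a11, Cyp3a13, Cyp3a16, Cyp3a25, Cyp3a41b, Cyp3a44, Cyp3a57 and Cyp3a59. They had 11 probes between them. Of these, 10 probes of 7 genes were bright enough to be tested, and the probe for Cyp3a44 was not. RNA came from hepatocytes of male C57Bl/J mice, cultured in Williams Medium E. Cells were left untreated, or received 100 µM SQ1 or 30 µM pravastatin from 48 h after plating, and were harvested after 48 h with the drug. SQ1 stands for squalestatin 1, which blocks squalene synthase, and pravastatin inhibits HMG-CoA reductase, an earlier step of cholesterol synthesis. The doses are those of the labels, and the unit of the SQ1 dose could not be checked. Each of 16 two-colour Agilent arrays carried treated RNA against untreated control RNA, 8 arrays for each drug. The treated RNA was in Alexa 647 for replicates 1 to 4 and in Alexa 555 for replicates 5 to 8. The untreated controls were shared: the deposited files give the same control number to the SQ1 array and the pravastatin array of a replicate. The labels call the replicates biological but do not say which animals they came from.

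P450 enzymes of this subfamily sit in the endoplasmic reticulum, carry a haem group and take their electrons from P450 oxidoreductase. Their transcription in hepatocytes depends on the liver factor HNF4α and rises when drugs, steroids or bile acids activate PXR (gene Nr1i2) or CAR (Nr1i3), nuclear receptors that bind DNA as dimers with RXR. Cyp3a11 is the best studied mouse gene of the subfamily and the usual readout of PXR activation. Cyp3a16, Cyp3a41b and Cyp3a44 are known from fetal or female-biased liver expression. Cyp3a13 is also expressed in the intestine.

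In the RefSeq annotation all members lie on chromosome 5. Cyp3a13 stands apart, and the other 7 members share 1 cluster in the order Cyp3a57, Cyp3a16, Cyp3a41b, Cyp3a44, Cyp3a11, Cyp3a25 and Cyp3a59. Cyp3a41a lies between Cyp3a41b and Cyp3a44 and had no probe of its own by RefSeq transcript. The files hold no probe sequences, so it could not be tested whether the Cyp3a41b probe also measures Cyp3a41a, or whether probes for other close relatives cross-hybridize. Similar values among the cluster members are to be read with that limit.

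The promoters fell into groups by sequence (RefSeq, build GRCm38.p6, 250 bases before to 50 after each start; all 8 members matched). Cyp3a25, Cyp3a57 and Cyp3a59 shared 90.9% to 96.3% of aligned bases. Cyp3a16, Cyp3a41b and Cyp3a44 shared 94.9% to 95.9%. Cyp3a11 was closest to Cyp3a16, at 83.2%, and Cyp3a13 shared 73.2% to 76.9% with the others. The Cyp3a41b and Cyp3a41a promoters were 99.7% identical. The promoters of 1 member or a pair from each group are printed here because the groups differ in the nuclear receptor sequence AGGTCA, which is in capitals on either strand (TGACCT on the other strand). They lie at chr5:145879805-145880104 (Cyp3a11, minus strand), chr5:146009569-146009868 (Cyp3a25, minus strand), chr5:145345019-145345318 (Cyp3a57, plus strand), chr5:145469674-145469973 (Cyp3a16, minus strand) and chr5:137921570-137921869 (Cyp3a13, minus strand), each written 5′ to 3′ along its gene.
Cyp3a11: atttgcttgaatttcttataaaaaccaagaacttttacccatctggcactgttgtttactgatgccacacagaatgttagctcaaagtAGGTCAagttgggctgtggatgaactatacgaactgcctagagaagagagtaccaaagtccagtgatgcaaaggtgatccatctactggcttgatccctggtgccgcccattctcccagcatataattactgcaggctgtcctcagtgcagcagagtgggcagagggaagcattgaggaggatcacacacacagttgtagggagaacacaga
Cyp3a13: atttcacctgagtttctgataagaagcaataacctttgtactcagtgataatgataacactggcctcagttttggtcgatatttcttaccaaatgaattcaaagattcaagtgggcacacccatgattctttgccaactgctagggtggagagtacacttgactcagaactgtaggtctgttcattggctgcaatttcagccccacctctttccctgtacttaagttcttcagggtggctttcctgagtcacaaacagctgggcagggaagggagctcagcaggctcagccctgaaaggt
Cyp3a16: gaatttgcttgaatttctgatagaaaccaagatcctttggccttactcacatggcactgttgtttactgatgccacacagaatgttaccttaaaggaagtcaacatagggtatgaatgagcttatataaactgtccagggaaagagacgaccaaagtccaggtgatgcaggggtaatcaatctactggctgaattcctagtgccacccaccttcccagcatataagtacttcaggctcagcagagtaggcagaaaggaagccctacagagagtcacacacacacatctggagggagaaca
Cyp3a25: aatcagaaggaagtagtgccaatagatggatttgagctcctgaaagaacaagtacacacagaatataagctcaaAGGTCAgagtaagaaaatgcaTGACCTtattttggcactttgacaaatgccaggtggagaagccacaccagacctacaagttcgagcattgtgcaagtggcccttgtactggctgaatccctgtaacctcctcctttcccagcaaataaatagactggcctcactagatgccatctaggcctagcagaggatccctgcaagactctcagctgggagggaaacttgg
Cyp3a57: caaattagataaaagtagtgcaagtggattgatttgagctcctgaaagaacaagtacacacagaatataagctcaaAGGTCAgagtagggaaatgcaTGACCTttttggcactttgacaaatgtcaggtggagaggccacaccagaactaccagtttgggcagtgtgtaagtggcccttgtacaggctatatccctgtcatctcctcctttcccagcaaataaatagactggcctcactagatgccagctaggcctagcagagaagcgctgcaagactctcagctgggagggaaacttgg

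AGGTCA, searched on both strands, was found in 16.3% of 32817 distinct RefSeq promoters of the same length. It occurred 2 times each in Cyp3a25, Cyp3a57 and Cyp3a59, once each in Cyp3a11 and Cyp3a44, and in none of the windows of Cyp3a13, Cyp3a16 and Cyp3a41b. In Cyp3a25, Cyp3a57 and Cyp3a59 the first copy was part of AGCTCAAAGGTCA, a match to the direct repeat AGNTCANAGNTCA with a spacing of 1 base, the layout that HNF4α is known to prefer. That repeat was in 0.219% of all promoters. In Cyp3a11 the copy was part of AGCTCAAAGTAGGTCA, which begins at position -172 from the start and matches the direct repeat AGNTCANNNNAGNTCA with a spacing of 4 bases, found in 0.125% of promoters. The direct repeat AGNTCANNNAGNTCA (0.0701% of promoters) and the everted repeat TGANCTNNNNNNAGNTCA (0.0305%), the layouts best known for PXR, were in none of the 8 windows. Each repeat overlaps the AGGTCA count where it contains that sequence, and these are matches of letters, not measured binding.

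**Figure D1:**
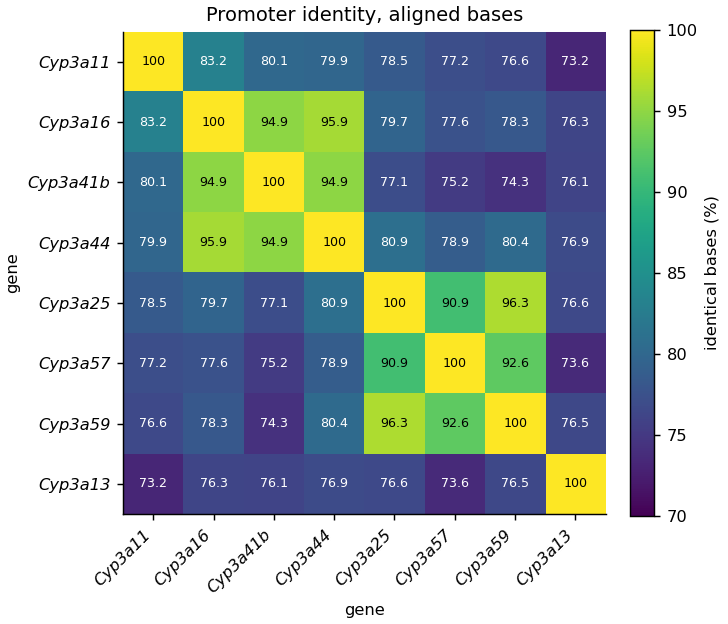
Identity of the 8 Cyp3a promoters. Each cell gives the percentage of identical bases among aligned bases for a pair of genes on the axes; Cyp3a16, Cyp3a41b and Cyp3a44 form 1 block at 94.9% to 95.9%, and Cyp3a25, Cyp3a57 and Cyp3a59 another at 90.9% to 96.3%.

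Between 23227 and 27430 probes were well above background in a channel. All 12 of 12 sterol-responsive genes rose with SQ1 (median log2 fold change 1.08) and with pravastatin (median 0.54). All 17 hepatocyte markers tested, among them Alb, were well above background in all 16 control channels. Of 15053 genes tested with limma, 32.3% passed an adjusted p of 0.05 with SQ1 (15.7% higher and 16.5% lower) and 66.7% with pravastatin (30.9% higher and 35.8% lower). The split by direction depends on the scaling: with pravastatin 4648 genes were higher and 5393 lower, but 4374 and 2797 with each array median-centred, and 6197 and 2101 without normalization, which moved the median of all genes to 0.12. With SQ1 the split was 2369 and 2491, and 1473 and 598 with median centring. The median log2 fold change over all these genes was -0.0023 with SQ1 and -0.012 with pravastatin. Every fold change given here is a log2 ratio of treated over control RNA within arrays, with limma's standard error (SE) and a Benjamini-Hochberg adjusted p over all 15053 genes, and every level is a normalized log2 intensity of 1 channel.

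Pravastatin lowered the Cyp3a cluster steeply. All 7 members tested were lower than in untreated cells, against 35.8% of all genes called lower. On the brightest probe of each gene, the fall of the 6 tested cluster members ranged from 12.9-fold to 23.9-fold (log2 fold changes -4.58 to -3.68, median -3.97). Cyp3a13, outside the cluster, was 1.19-fold lower on its brighter probe, and its second probe gave a log2 fold change of -0.85. On their brightest probes all 6 cluster members stood among the 16 genes with the lowest fold changes on the array. The second probes of Cyp3a11 (-3.54) and Cyp3a59 (-2.68) lay above the range of these 6 genes. For each of these 6, every treated culture lay below every control culture, a separation in that direction seen in 12.8% of all genes. In bulk RNA, fewer cells of a type and less RNA per cell cannot be told apart.

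On its brighter probe Cyp3a11 had the second lowest fold change of all 15053 genes. Its control levels on the pravastatin arrays ran from 14.85 through a median of 16.67 to 17.36, and its treated levels from 11.14 through 11.80 to 12.51. The treated cultures thus kept a signal well above background on all 8 arrays. The dye-corrected ratio was -5.40 on the lowest array, -4.74 at the median and -3.39 on the highest, and the fitted fold change was -4.58 ± 0.25 (SE, n = 8 arrays, adjusted p = 1.25e-10, limma).

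Cyp3a16 and Cyp3a41b, the tested members of the group of closely similar promoters, both fell. Control levels of Cyp3a16 ran from 11.46 through 13.08 to 13.72 and treated levels from 8.77 through 9.22 to 9.81, a fold change of -3.69 ± 0.18 (12.9-fold lower, adjusted p = 4.89e-11, limma). For Cyp3a41b the controls ran from 10.27 through 11.93 to 12.49 and the treated cultures from 7.60 through 7.86 to 8.20, a fold change of -3.97 ± 0.20 (15.6-fold lower, adjusted p = 6.23e-11). Neither gene's groups overlapped, and all 8 arrays of each were negative.

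Cyp3a25, Cyp3a57 and Cyp3a59 form the other promoter group. Controls of Cyp3a25 ran from 10.99 through 12.62 to 13.50 and treated cultures from 8.18 through 8.48 to 8.68, giving -3.97 ± 0.28 (15.7-fold lower, adjusted p = 3.11e-09, limma). Cyp3a57 went from 10.11 through 11.70 to 12.55 in controls to 7.59 through 7.83 to 8.30 with the drug, giving -3.68 ± 0.24 (12.9-fold lower, adjusted p = 1.32e-09). Cyp3a59 went from 11.34 through 13.01 to 13.72 in controls to 8.40 through 8.63 to 9.27, giving -4.08 ± 0.20 (16.9-fold lower, adjusted p = 3.72e-11). In all 3 genes the spread among controls (SD 0.76 to 0.85) was larger than among treated cultures (SD 0.18 to 0.33). The same held for Cyp3a11 (0.79 and 0.45), Cyp3a16 (0.73 and 0.37) and Cyp3a41b (0.69 and 0.21).

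**Figure D2:**
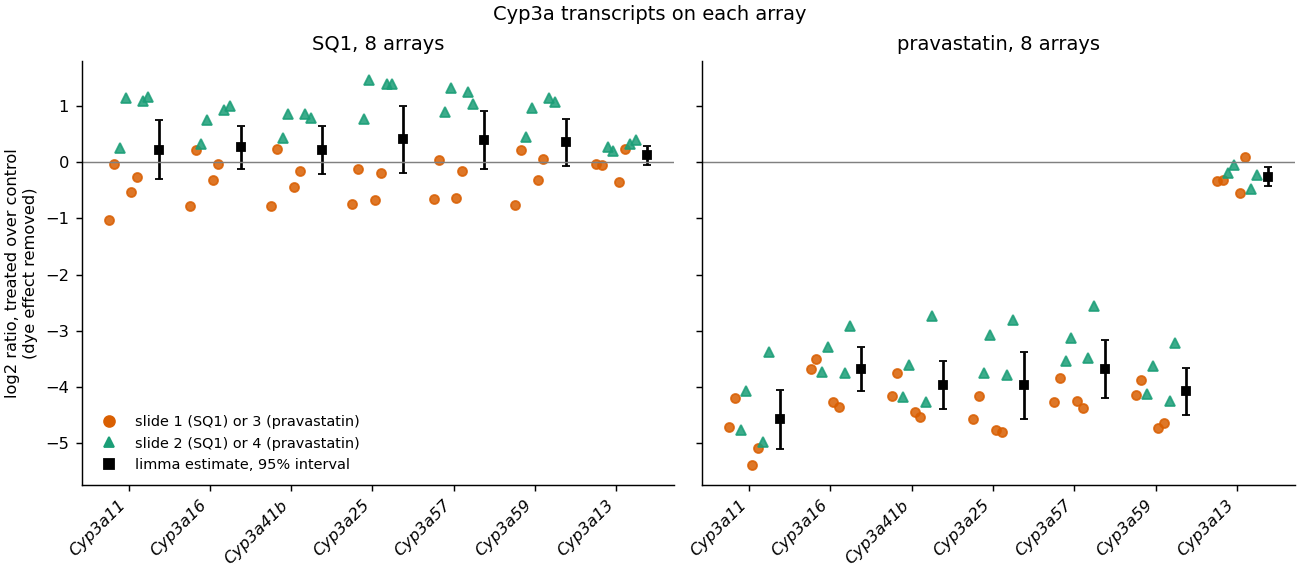
Log2 ratio of treated over control RNA for each of the 7 tested Cyp3a genes on each array, with the dye effect of the gene removed. Coloured points are single arrays (circles, slides 1 and 3; triangles, slides 2 and 4) and black squares are limma estimates with 95% intervals (n = 8 arrays a drug). With pravastatin the 6 cluster genes lie between -5.40 and -2.56 and Cyp3a13 between -0.54 and 0.10; with SQ1 most slide 1 arrays lie below 0 and all slide 2 arrays above it.

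Cyp3a13 changed less with pravastatin than the cluster genes, by an amount that differed between its probes. On its brighter probe (A_55_P2185821) control levels ran from 15.19 through 15.54 to 15.73 and treated levels from 15.13 through 15.27 to 15.30, so the groups overlapped, and 7 of 8 arrays were negative. The fold change of -0.26 ± 0.08 passed the threshold (adjusted p = 0.00819, limma), but with each array median-centred in place of loess it was -0.06 (adjusted p = 0.708), and with slide as a random block its adjusted p was 0.0559. The second probe of Cyp3a13 (A_55_P2185826) gave -0.85 ± 0.09 (adjusted p = 4.32e-07 over 25826 probes, of which 63.8% were called), with controls from 13.38 to 14.11 and treated cultures from 12.74 to 13.00. Both probes were negative, but they differed in size by 0.59.

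The other genes with a pair of probes also gave unequal sizes in 1 direction. Cyp3a11 fell by 4.58 on probe A_55_P2121225 and by 3.54 ± 0.17 on probe A_51_P355301, a difference of 1.04. Cyp3a59 fell by 4.08 on probe A_55_P2028046 and by 2.68 ± 0.19 on probe A_55_P2039044, a difference of 1.40. Treated levels of the latter probe were 6.83 to 7.49. The lowest levels called well above background in those channels were 5.74 to 6.26, and whether this made its fall smaller was not tested. These differences between probes of 1 gene are larger than the spread of the fold changes among the 6 cluster genes (-4.58 to -3.68), so the order of the genes within the cluster is not resolved.

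The only probe for Cyp3a44 was well above background in 1 of 8 control channels on the pravastatin arrays and in none of the treated ones, and in 1 control and 2 treated channels on the SQ1 arrays. Its levels lay between 5.99 and 6.71 in all channels, near the lowest levels called well above background on these arrays (4.88 to 6.36), so no fold change is given for it.

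With SQ1 none of the 7 members passed the threshold, against 32.3% of all genes. On the brightest probe of each gene, none had an unadjusted p under 0.05 (lowest 0.0934, Cyp3a59, limma). On these probes the estimates were above 0, from 0.12 (Cyp3a13) to 0.41 (Cyp3a25). The second probe of Cyp3a59 gave 0.47 ± 0.19 (adjusted p = 0.0807 over 25826 probes, limma). That of Cyp3a11 gave 0.25 ± 0.17 and that of Cyp3a13 -0.13 ± 0.09. Cyp3a11 had controls from 14.90 through 16.40 to 17.08 and SQ1-treated cultures from 15.87 through 16.38 to 17.10. The groups overlapped, and the fold change was 0.23 ± 0.25 with a 95% interval from -0.30 to 0.75 (adjusted p = 0.525, limma). For Cyp3a25 the interval ran from -0.18 to 1.01, for Cyp3a57 from -0.13 to 0.91, for Cyp3a59 from -0.07 to 0.77, for Cyp3a16 from -0.13 to 0.65 and for Cyp3a41b from -0.20 to 0.65. The data therefore do not show that SQ1 left these genes alone: a rise of up to 2.02-fold for Cyp3a25 lies within its interval. The interval of Cyp3a13 was narrower, from -0.04 to 0.29.

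The SQ1 estimate averaged arrays that differed by slide. Slide 1 held replicates 1, 2, 5 and 6 of the SQ1 arrays and slide 2 the other 4. Fitted within slide 1, the estimates of all 7 members were below 0 and none passed the threshold, against 34.8% of all genes (Cyp3a11 -0.46 ± 0.24, adjusted p = 0.154; Cyp3a25 -0.43 ± 0.16, adjusted p = 0.054, limma). Within slide 2 all 7 members were higher with SQ1, against 14% of all genes called higher. There Cyp3a25 was 1.26 ± 0.16 (adjusted p = 5.47e-05, n = 4 arrays, limma), Cyp3a57 1.13 ± 0.14, Cyp3a11 0.91 ± 0.24, Cyp3a59 0.91 ± 0.18, Cyp3a16 0.76 ± 0.18, Cyp3a41b 0.74 ± 0.21 and Cyp3a13 0.30 ± 0.09. The difference between the slides itself passed the threshold for all 6 cluster genes and not for Cyp3a13 (-0.35, adjusted p = 0.102), against 12.3% of all genes. Leaving out SQ1 replicate 1, an array of slide 1, put Cyp3a59 past the threshold (0.52, adjusted p = 0.0435), and leaving out replicate 5, also of slide 1, put Cyp3a13 past it (0.20, adjusted p = 0.046).

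**Figure D3:**
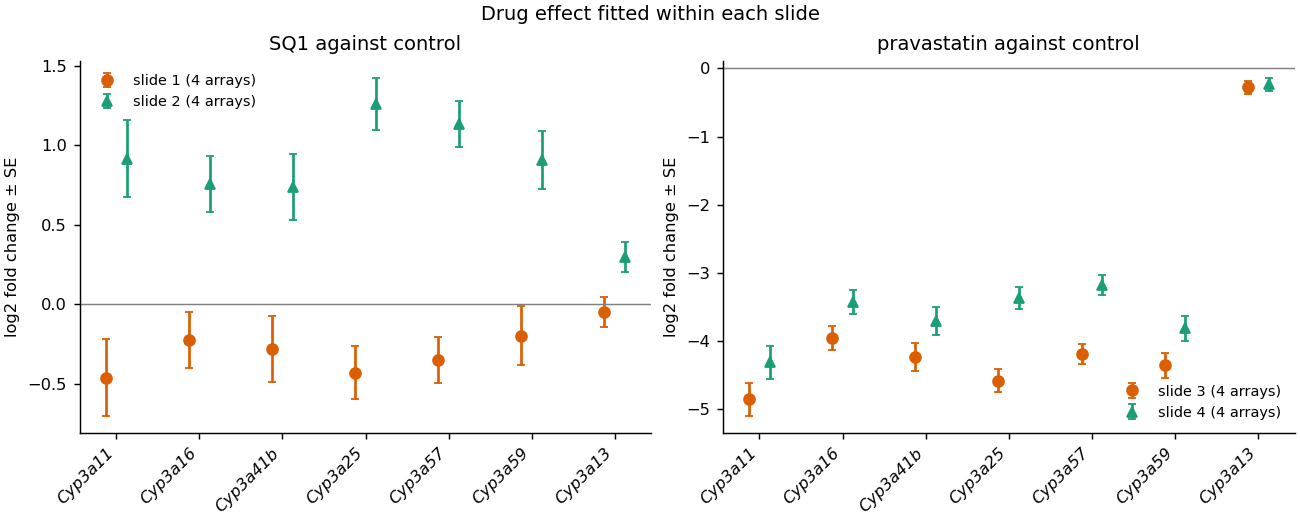
Log2 fold change of each tested Cyp3a gene fitted within each slide, with limma's SE (n = 4 arrays a slide). SQ1 estimates lie below 0 on slide 1 and between 0.30 and 1.26 on slide 2; pravastatin estimates of the 6 cluster genes lie between -4.85 and -3.18 on both slides.

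The untreated cultures differed among themselves in the cluster genes. Averaged over both arrays that carry it, the control level of Cyp3a11 ranged from 14.87 in replicate 8 to 17.22 in replicate 1, a 5.09-fold range over 8 control cultures. Each of the other 5 cluster genes had a control range of 4.92-fold to 5.37-fold, with the same replicates lowest and highest. Cyp3a13 ranged only 1.37-fold. The readings of 1 control on its SQ1 and pravastatin arrays were close: for Cyp3a59 they differed by 0.05 at the median and by 0.16 at most, and for Cyp3a11 by 0.24 and 0.70.

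Control and treated levels moved differently between slides. The mean control level of Cyp3a11 was 16.67 on slide 1 and 15.66 on slide 2, while its SQ1-treated level was 16.21 and 16.58. For Cyp3a25 the control means were 12.95 and 11.72 and the SQ1-treated means 12.52 and 12.98. For Cyp3a57 the control means were 12.14 and 10.84 and the SQ1-treated means 11.79 and 11.97. Over the 6 cluster genes on the SQ1 arrays, the slide 1 mean less the slide 2 mean was 0.93 to 1.30 for controls and -0.46 to 0.21 for SQ1-treated cultures. The same control cultures were read on slides 1 and 3 and on slides 2 and 4, and on the pravastatin arrays the slide 3 mean less the slide 4 mean was 0.73 to 1.33 for controls. The shift in control level was thus measured on both pairs of slides. Each treated culture was read on 1 slide, so for treated levels slide and culture cannot be told apart.

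**Figure D4:**
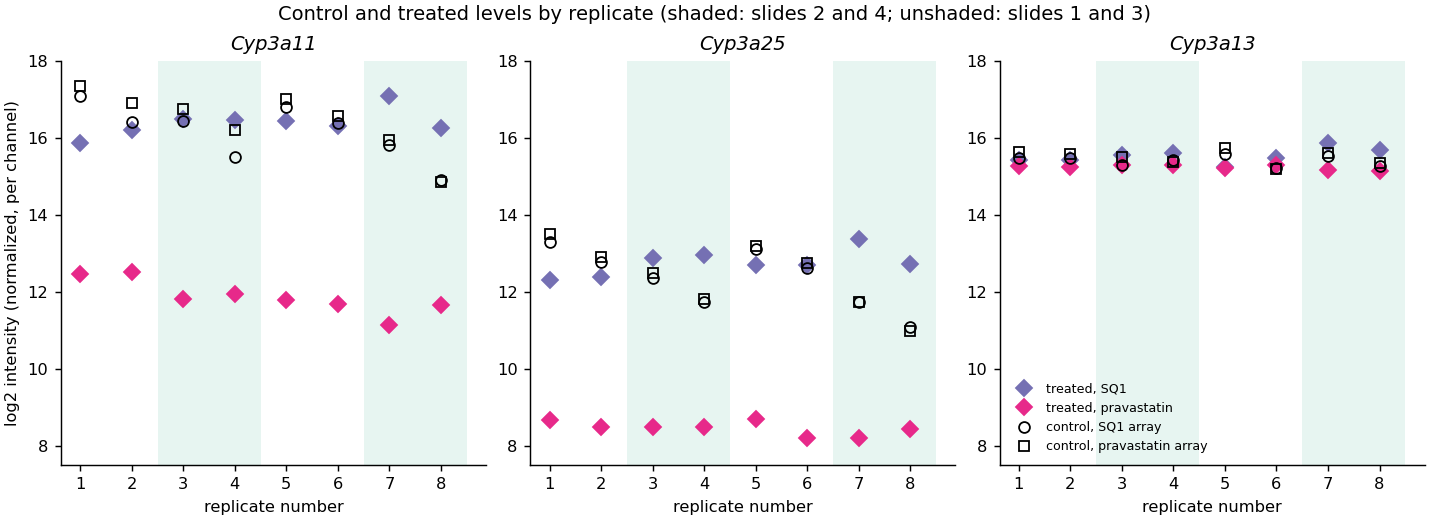
Normalized log2 intensity of Cyp3a11, Cyp3a25 and Cyp3a13 in the control channel (open symbols) and treated channel (filled diamonds) of each replicate; shading marks slides 2 and 4. Controls of Cyp3a11 run from 14.85 to 17.36, SQ1-treated cultures from 15.87 to 17.10 and pravastatin-treated cultures from 11.14 to 12.51.

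With pravastatin the slides differed in size and not in direction. Slide 3 was scanned on another day than slides 1, 2 and 4, so for slide 3 slide and scan day cannot be told apart. All 7 members were called lower within slide 3 (35.2% of all genes) and within slide 4 (30.5%). Cyp3a25 was -4.58 ± 0.16 on slide 3 and -3.36 ± 0.16 on slide 4 (adjusted p of the difference 0.00196, limma), and Cyp3a57 was -4.19 ± 0.14 and -3.18 ± 0.14 (adjusted p = 0.00278). The slide difference did not pass the threshold for the other 5 members, against 21.8% of all genes. Treated levels of Cyp3a25 averaged 8.51 on slide 3 and 8.39 on slide 4, and its control levels 13.09 and 11.75.

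The drugs were also compared with each other, at unlike doses and against the same controls. All 7 members tested were higher with SQ1 than with pravastatin (of all genes, 53.1% were called, 29.3% higher and 23.8% lower). The difference was 4.81 ± 0.35 for Cyp3a11 (adjusted p = 1.91e-08, limma), the highest of all 15053 genes on that probe, 4.43 ± 0.28 for Cyp3a59, 4.38 ± 0.40 for Cyp3a25, 4.19 ± 0.29 for Cyp3a41b, 4.07 ± 0.35 for Cyp3a57 and 3.95 ± 0.26 for Cyp3a16. The other probe of Cyp3a11 gave 3.79 ± 0.24 and that of Cyp3a59 3.15 ± 0.27, so the rank of Cyp3a11 rests on its brighter probe. For Cyp3a13 the difference was 0.38 ± 0.11 (adjusted p = 0.00799, limma). It was 0.31 with median centring (adjusted p = 0.202) and 0.23 within slides 1 and 3 (adjusted p = 0.181). The second probe of Cyp3a13 gave 0.72 ± 0.13 (adjusted p = 0.00023 over 25826 probes, of which 48.7% were called). SQ1-treated and pravastatin-treated levels of Cyp3a11 did not overlap, at 15.87 or above and 12.51 or below.

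The genes that flank the cluster had small fold changes with pravastatin. On 1 side Zkscan5, Zfp655 and Zkscan14, which encode zinc finger proteins, had fold changes of -0.11, 0.14 and 0.11. On the other side the ubiquitin ligase gene Rnf6, the kinase gene Cdk8 and 1700001J03Rik had -0.08, 0.08 and 0.09. Zfp655, Cdk8 and 1700001J03Rik were called higher, Zkscan5 lower, and Zkscan14 and Rnf6 did not pass. On their brightest probes the 6 tested members between these genes were at -3.68 or below. Around Cyp3a13 the neighbours went both ways: Azgp1 (-1.16 ± 0.08), Smok3b (-0.76 ± 0.07) and Gjc3 (-0.29 ± 0.06) were lower, and the immune receptor genes Pilra (0.67 ± 0.08), Pilrb2 (0.42 ± 0.06) and Pilrb1 (0.25 ± 0.04) were higher.

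In log2 ratios over the arrays, the gene nearest to each tested cluster member was another cluster member, but outside genes also came close. Likeness was measured as the root mean square difference between dye-corrected log2 ratios over the 16 arrays. It depends on the size of the changes, so a gene near a cluster member must also be much lower with pravastatin. The closest pair of members was Cyp3a41b and Cyp3a59, at 0.19, followed by Cyp3a25 and Cyp3a57, at 0.26, and Cyp3a16 and Cyp3a41b, at 0.26. Cyp3a59 was the gene nearest to Cyp3a11 (0.40). The nearest genes to Cyp3a11 outside the family were Gm4952 (0.70), the betaine methyltransferase Bhmt (0.72), the urea cycle enzyme Arg1 (0.76), the liver glycogen synthase Gys2 (0.82) and the bile acid conjugating enzyme Baat (0.91). Gm4952 was nearer to Cyp3a11 than Cyp3a57 was (0.71). Arg1 was nearer to Cyp3a16 (0.48) and to Cyp3a57 (0.54) than Cyp3a11 was (0.67 and 0.71). Arg1 and Bhmt were also the nearest outside genes to Cyp3a41b and Cyp3a59. For Cyp3a16 the nearest were Arg1, Aldh8a1 (0.51) and Bhmt, and Fabp1, the liver fatty acid binding protein, came first for Cyp3a57 (0.52). Because these outside genes were chosen by this measure, their fall with pravastatin is no separate result. Their fold changes were -3.79 (Arg1), -3.98 (Bhmt), -3.88 (Gys2), -3.66 (Baat), -3.53 (Fabp1), -3.19 (Aldh8a1) and -4.26 (Gm4952). Cyp3a13 was nearest to Ncoa4 (0.13), Chp1 (0.14) and Meis1 (0.15), genes with small changes, and its distance from the cluster members was 2.47 to 3.12.

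The known regulators of Cyp3a transcription were lower with pravastatin in most cases. Of 27 tested, 18 fell and 5 rose, with a median of -0.42, against 35.8% and 30.9% of all genes. With median centring 15 fell and 4 rose, and without normalization 14 fell and 8 rose (median -0.23). The farnesoid X receptor Nr1h4 (-2.005 ± 0.14), CAR (Nr1i3, -1.93 ± 0.19) and PXR (Nr1i2, -1.52 ± 0.07) fell most, and Hnf4a fell by 1.30. Rxra was lower by a small amount (-0.18 ± 0.05). The acute phase factor Cebpb (0.50 ± 0.05) and Foxa1 (0.15 ± 0.03) were among those that rose. With SQ1, 5 rose and 3 fell (median 0.06), against 15.7% and 16.5% of all genes, but 3 rose and 0 fell with median centring and 2 and 0 without normalization: Nr1i2 (0.26 ± 0.07), Foxa1 (0.24 ± 0.03) and Rxra (0.24 ± 0.05) were the largest rises, and Foxa3 (-0.19), the glucocorticoid receptor Nr3c1 (-0.18) and Stat5b (-0.17) were the falls, none of them called in those alternatives. Nr1i3 (0.20 ± 0.19, adjusted p = 0.448) and Hnf4a (-0.08 ± 0.09, adjusted p = 0.577) did not pass with SQ1.

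The genes that serve P450 catalysis moved less. Por, the P450 reductase, rose with SQ1 (0.60 ± 0.04) and with pravastatin (0.46 ± 0.04). Alas1, which catalyses the first and limiting step of haem synthesis, also rose with both (0.60 ± 0.05 and 0.22 ± 0.05). Of the 16 genes of this list, 3 rose and 0 fell with SQ1 (median -0.00039), against 15.7% and 16.5% of all genes. At an unadjusted p under 0.05 (limma) 4 rose and 1 fell. With pravastatin 3 rose and 11 fell (median -0.27), against 30.9% and 35.8% of all genes. The rises and falls with pravastatin were 3 and 4 both with median centring (median -0.12) and without normalization (-0.04). The third rise was Cyb5a (0.29 ± 0.10) with SQ1 and the haem oxygenase Hmox1 (0.42 ± 0.06) with pravastatin. Alad, a haem synthesis enzyme (-1.12 ± 0.07), Cyb5r3 (-0.53 ± 0.05) and Cyb5a (-0.51 ± 0.10) had the lowest values with pravastatin.

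Other targets of PXR and CAR went both ways. With SQ1, 18 of 29 rose and 2 fell (median 0.44), against 15.7% and 16.5% of all genes. The CAR targets Cyp2b9 (1.73 ± 0.14) and Cyp2b10 (1.32 ± 0.12) and the carboxylesterase Ces2c (1.56 ± 0.09) rose most. Gadd45b (-0.44 ± 0.07) and Cyp2c50 (-0.38 ± 0.08) fell. With pravastatin, 18 fell and 5 rose (median -0.38), against 35.8% and 30.9% of all genes. These counts were 14 and 4 with median centring and 14 and 6 without normalization. The falls were led by the flavin monooxygenase Fmo5 (-2.78 ± 0.10), Aldh1a7 (-1.72 ± 0.08) and Cyp2c54 (-1.59 ± 0.07), and Ces2c (1.36 ± 0.09), Gsta2 (0.93 ± 0.09) and Cyp2a4 (0.67 ± 0.15) rose. Cyp2b10 (-0.15 ± 0.12, adjusted p = 0.283) and Cyp2b9 (-0.09 ± 0.14, adjusted p = 0.587) did not pass with pravastatin. On slide 1 the list's median with SQ1 was 0.15, with 13 of 29 higher and 5 lower. On slide 2 it was 0.61, with 22 higher and 2 lower. Of all genes, 34.8% were called in either direction on slide 1 and 27% on slide 2 (14% higher).

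**Figure D5:**
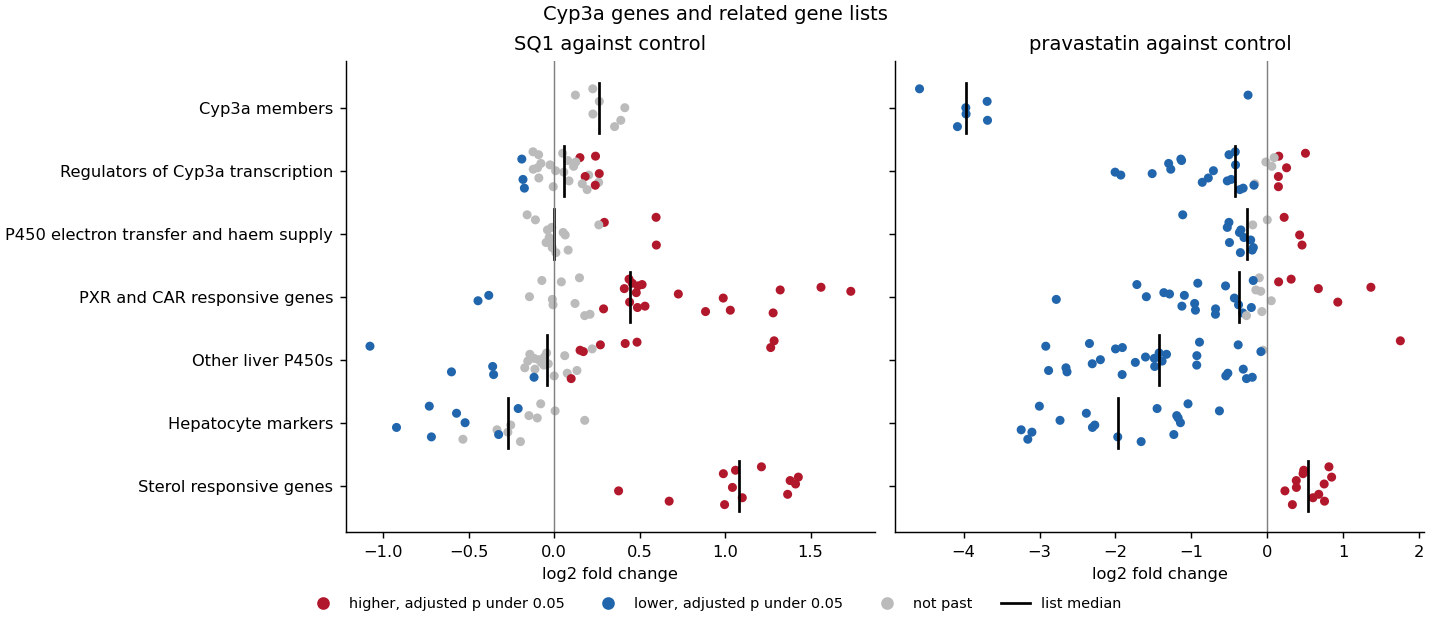
Log2 fold change of each tested gene in 7 lists, for SQ1 (left) and pravastatin (right); the horizontal scales differ. Points are genes, coloured by call at an adjusted p of 0.05, and black bars are list medians. With pravastatin the Cyp3a median is -3.97, that of other liver P450s -1.43 and that of hepatocyte markers -1.97.

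Other liver P450s were lower with pravastatin but by less. Of 29 tested, 27 fell and 1 rose, against 35.8% and 30.9% of all genes. The list's median was -1.43, against -3.97 for the 7 Cyp3a genes. The lowest was the arachidonate epoxygenase Cyp2c23 (-2.92 ± 0.18), followed by Cyp2f2 (-2.88 ± 0.19) and Cyp2d9 (-2.65 ± 0.10). On its brightest probe each of the 6 cluster members had a lower fold change than any gene of this list, but the second probe of Cyp3a59 (-2.68) lay above Cyp2c23 and Cyp2f2. Among all 71 other P450 genes tested, listed or not, Cyp2c23 was again the lowest. Cyp1a1, the classic target of the aryl hydrocarbon receptor, rose with pravastatin (1.75 ± 0.14) and with SQ1 (1.29 ± 0.14). With SQ1 the list had 8 rises and 5 falls, against 15.7% and 16.5% of all genes. Its median was -0.04, which became 0.08 with median centring and 0.01 without normalization within arrays. Cyp2c38 rose with SQ1 (1.27 ± 0.13) and fell with pravastatin (-1.91 ± 0.13), and Cyp2c23 fell with both (-1.08 ± 0.18 with SQ1).

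Hepatocyte markers were also lower with pravastatin, where 35.8% of all genes were called lower and 30.9% higher. All 17 fell with pravastatin (median -1.97), among them the tryptophan-degrading enzyme Tdo2 (-3.15 ± 0.24), the gluconeogenic enzyme Pck1 (-3.10 ± 0.16) and Alb (-1.05 ± 0.08). Their mean level over the list was 14.43 to 15.52 in controls and 12.63 to 13.45 in treated cultures. On slide 3 the list's median was -2.50, and on slide 4 it was -1.44. With SQ1, 7 fell, among them Hpd (-0.92 ± 0.15) and Tat (-0.72 ± 0.22), and 0 rose (median -0.27). Of all genes, 16.5% were called lower with SQ1 and 15.7% higher. At an unadjusted p under 0.05 (limma) 9 fell and 0 rose, and with median centring 3 fell. The list medians were -0.52 for slide 1 and -0.10 for slide 2, where 5 fell and 0 rose and the Cyp3a median was 0.91. On slide 2, 27% of all genes were called in either direction. All 8 periportal markers fell with pravastatin (median -1.47). Of 8 pericentral markers 5 fell and 1 rose (median -0.49), against 35.8% and 30.9% of all genes. The part of these changes in the Cyp3a result was not tested.

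Markers of other liver cells changed less. With pravastatin 10 of 13 Kupffer cell markers fell and 1 rose (median -0.46), 6 of 14 stellate and fibroblast markers fell and 1 rose (-0.11), 4 of 12 endothelial markers fell and 5 rose (0.03), and 4 of 9 cholangiocyte markers fell and 1 rose (-0.19), where 35.8% of all genes were lower and 30.9% higher. With median centring the falls and rises were 2 and 2 for stellate and 2 and 5 for endothelial markers, and without normalization the stellate median was 0.04. Their mean levels overlapped between control and treated cultures in all 4 lists: for Kupffer markers 9.88 to 10.71 in controls and 9.58 to 10.43 with pravastatin. With SQ1 the Kupffer markers had 6 falls and 0 rises and the stellate markers 2 and 2. The endothelial markers had 0 and 6 and the cholangiocyte markers 3 and 0. Of all genes, 16.5% were lower and 15.7% higher with SQ1. At an unadjusted p under 0.05 (limma) the falls and rises of the 4 lists, in this order, were 7 and 0, 4 and 2, 0 and 7, and 4 and 0. In control channels, 12 of 13 Kupffer, 13 of 14 stellate, 12 of 12 endothelial and 6 of 9 cholangiocyte markers were well above background on all 16 arrays. Their part in the Cyp3a result was not tested.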

How the data were processed

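Each array set RNA of treated hepatocytes against RNA of untreated ones. Per the file headers, Agilent Feature Extraction 11.0.1.1 gave the deposited spot intensity values in both dyes and a log10 ratio of Alexa 647 over Alexa 555, which was not used in the main analysis. The authors' deposited series table holds log2 ratios; it correlated at 0.743 to 0.999 with Agilent's ratio turned to treated over control, so its scale and direction are known, while its centring is not (column medians -0.068 to 0.140). Aligner and build do not apply; the array design was laid out on another build than the promoters, so no probe coordinates are given.

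Median spot signals were background-corrected (normexp, offset 50) and loess-normalized within arrays (limma 3.58.1, R 4.3.3), with control spots and flagged outliers at weight 0. A probe was tested if well above background on at least 4 treated arrays of a drug or in 8 control channels, which left 15053 named genes. A gene was its brightest probe. The fit had a coefficient for each drug and a dye term, with 13 residual degrees of freedom, all 16 arrays sharing 1 estimate of spread. Levels are channel intensities after Aquantile normalization. Promoters were aligned and searched with Biopython 1.88. The model was tested on simulated data first. The number of arrays limits the precision.

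Replicate numbers pair the samples: same-numbered arrays of the drugs share a control, and their residuals correlated at 0.22 to 0.72. The same-numbered pravastatin array correlated best with the SQ1 array for replicates 4, 5 and 6. For replicates 1, 2, 3, 7 and 8 another pravastatin array did. Slides held 4 arrays of 1 drug each, so slide entered as a random block and by fits within slides. The members and gene lists were chosen with earlier results of these data known. Named genes are all members and up to 3 genes per direction, drug and list with the largest called change. Nr1i2, Nr1i3, Rxra, Hnf4a, Por and Alas1 are always named. So are the genes nearest in log2 ratios over the arrays, and the 3 tested neighbours on each side of a locus. Alb and Cyp2b genes under pravastatin were named after their values were seen. No correlation between the drugs' effects is given, because they share controls. Some genes that this rule names are not reported here.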

Additional observations from a re-analysis of the deposited data

Results flagged for a closer look

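The effect of a drug on a Cyp3a gene differed between the slides of that drug, by a limma contrast of the slides adjusted over all genes, in 8 cases. With SQ1 the fold change on slide 1 less that on slide 2 was -1.69 for Cyp3a25 (adjusted p = 0.000987), -1.48 for Cyp3a57 (0.000987), -1.38 for Cyp3a11 (0.0179), -1.10 for Cyp3a59 (0.0144), -1.02 for Cyp3a41b (0.0339) and -0.98 for Cyp3a16 (0.0197). For pravastatin, slide 3 less slide 4, which were scanned on different days, was -1.22 for Cyp3a25 (adjusted p = 0.00196) and -1.01 for Cyp3a57 (0.00278). Of all genes, 12.3% showed such a difference with SQ1 and 21.8% with pravastatin. Control readings of a culture were close on its slides, as for Cyp3a25 in replicate 8 (11.08 and 10.99) and replicate 1 (13.29 and 13.50), while each treated culture was read on 1 slide only.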

How the results depend on the processing

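The 6 tested cluster genes were lower with pravastatin, and higher with SQ1 than with pravastatin, under every alternative run. The count of Cyp3a genes called with SQ1 was 0 under every alternative except these: it was 7 within slide 2, an analysis chosen after seeing the data, and it ran from 0 to 1 when 1 array was left out (1 without SQ1 replicate 1 or without replicate 5). Cyp3a13 with pravastatin turned to 0.0224 (adjusted p = 0.86) with no normalization within arrays; a random block for scan day gave it an adjusted p of 0.0669; for SQ1 less pravastatin it was 0.16 with no normalization (adjusted p = 0.348) and its adjusted p was 0.0609 with slide as a random block. The cause was not tested. The pairing changed no call: with the replicate block, SQ1 less pravastatin for Cyp3a11 was 4.81 ± 0.19, and the counts called were 0, 7 and 7 for SQ1, pravastatin and their difference. Without the filter on dim probes Cyp3a44 entered, and 8 members were called with pravastatin, against 49% of 20620 genes. The Cyp3a44 probe was well above background in none of the pravastatin-treated channels, so its call is not read as a fall. Calls over all genes with SQ1 fell from 4860 to 2071 with median centring, 1874 without normalization, 2543 with slide and 2239 with scan day as a block, and 3121 at an adjusted p of 0.01. With pravastatin the totals moved by under 1.5 times (lower calls fell from 5393 to 2797 with median centring and 2101 without normalization), except that testing each probe by itself called 16476 probes against 10041 genes (7496 probes with SQ1 and 12582 for the difference). For SQ1 less pravastatin they fell from 7996 to 3697 with median centring.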
